A study of Mus musculus with 6 samples.

Results

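The radial spoke, central apparatus, tektin and CFAP genes encode structural parts of the axoneme, the microtubule core of a motile cilium. They were taken by name as every gene whose symbol begins with Cfap, Rsph or Tekt, other than pseudogenes, together with Hydin, Spag6, Spag6l, Spag16, Spag17, Spef2, Drc1, Gas8 and Ccdc65. This gave 47 of the 48577 genes in the deposited tables, and 44 of the 47 had enough reads to be tested. No expression value entered this rule.

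RNA had been sequenced from lung epithelial cells of C57BL/6 mice that carry the Miwi2-tdTomato reporter, in which tdTomato fluorescence marks the locus of Piwil4, the gene for the Piwi protein MIWI2. Cells lacking the leukocyte marker CD45 and bearing the epithelial marker EpCAM were sorted into a tdTomato-positive and a tdTomato-negative fraction, which the labels both call multiciliated. Every mouse carried the reporter, no treatment was given in the labels, and age is not given in the sources used here. Each of 3 mice gave 1 tdTomato-positive and 1 tdTomato-negative library.

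Reads counted in genes came to 5602309 to 5763317 in the tdTomato-positive and 5330584 to 6326395 in the tdTomato-negative libraries. Levels are given as CPM, read counts scaled by library size and TMM factor. Piwil4 was at 101, 95.7 and 111 CPM in the tdTomato-positive libraries of mice 1, 2 and 3, against 44.04, 29.97 and 45.6 CPM in the tdTomato-negative ones (log2 fold change 1.36, adjusted p = 0.012 by edgeR). The reporter itself had 37, 16 and 18 reads in the tdTomato-positive libraries and 0 in each tdTomato-negative one. The summed level of the multiciliated cell markers, of which 18 of 20 were tested, was 7778 to 8299 CPM in the tdTomato-positive and 7705 to 7879 CPM in the tdTomato-negative libraries, and none of those in the tables was at 0 throughout, so RNA of the labelled cell type was present in both fractions. The median log2 fold change of these markers was 0.295, beside 0.03 over all genes tested. Within mice 1, 2 and 3 their median log2 difference was 0.24, 0.0008 and 0.63. Summed alveolar type 2 markers (14 of 14 tested) were at 624 to 1249 CPM in the tdTomato-positive and 7386 to 8859 CPM in the tdTomato-negative libraries, and none of them was at 0 in all libraries. Summed club cell markers (10 of 10 tested, none at 0 throughout) were at 8722 to 22380 CPM in the tdTomato-positive and 4882 to 8381 CPM in the tdTomato-negative libraries. Summed leukocyte markers were at 42.1 to 80.9 CPM in the tdTomato-positive and 75.5 to 232 CPM in the tdTomato-negative libraries, with Coro1a at 0 in all tdTomato-positive libraries. Alveolar type 1 markers summed to 219 to 304 CPM in the tdTomato-positive and 241 to 293 CPM in the tdTomato-negative libraries, with Pdpn at 0 throughout. The largest part was Emp2, at means of 132 CPM in tdTomato-positive and 107 CPM in tdTomato-negative libraries. Of the 9 alveolar type 1 markers tested, 4 had log2 fold changes above 0 and 5 below, with a median of -0.86. Those 5 were lower in 3 of 3 mice, against 18.8% of all genes tested. Basal cell markers summed to 1.01 to 2.06 CPM in the tdTomato-positive and 10.1 to 17.5 CPM in the tdTomato-negative libraries, with Trp63 at 0 in the tdTomato-positive ones. Endothelial markers summed to at most 27.7 CPM in tdTomato-positive and 11.8 CPM in tdTomato-negative libraries, and mesenchymal markers to at most 39.9 CPM in tdTomato-positive and 83.4 CPM in tdTomato-negative libraries. How far such cells enter the values that follow was not tested. In such sorted pools, fewer cells of a type and less RNA per cell cannot be told apart.

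A motile cilium of the airway is built on a ring of doublet microtubules around a central pair. Radial spokes reach inward from each doublet to the projections of the central pair and pass mechanical signals to the dynein motors, the nexin-dynein regulatory complex links neighbouring doublets, and tektins and other proteins line the inside of the doublets and stiffen them. CFAP is a naming scheme for cilia and flagella associated proteins and covers parts of all of these structures. Loss of several of these proteins causes primary ciliary dyskinesia in humans, in which mucus clearance from the airways fails. Their genes are switched on together in multiciliated cells, where RFX factors, which bind the X-box, and the forkhead factor FOXJ1 are known regulators.

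The bases before the start of 4 of the genes are shown, because the first pair had the smallest p-values with the mouse in the model and the second pair were the genes whose levels in all 3 tdTomato-positive libraries lay below all 3 tdTomato-negative ones. Each is the 250 bases before a RefSeq transcript start on GRCm38.p6, written 5′ to 3′ in the direction of transcription. Capitals mark a single arm of the X-box, not the whole motif, as GTTGCC or its reverse complement GGCAAC. They also mark the forkhead letters TGTTTAC or GTAAACA. These motifs do not overlap in the sequences shown.
Cfap161 (chr7:83794840-83795089, minus strand): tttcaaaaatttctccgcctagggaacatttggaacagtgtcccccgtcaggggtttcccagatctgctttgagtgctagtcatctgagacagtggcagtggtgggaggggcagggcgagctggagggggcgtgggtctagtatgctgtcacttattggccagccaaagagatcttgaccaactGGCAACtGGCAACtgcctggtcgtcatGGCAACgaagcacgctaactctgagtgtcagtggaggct
Cfap126 (chr1:171113736-171113985, plus strand): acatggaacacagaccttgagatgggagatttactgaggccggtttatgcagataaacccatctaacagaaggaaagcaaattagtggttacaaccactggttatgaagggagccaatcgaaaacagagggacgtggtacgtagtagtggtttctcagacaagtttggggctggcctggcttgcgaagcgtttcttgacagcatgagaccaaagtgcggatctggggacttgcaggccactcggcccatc
Spef2 (chr15:9748869-9749118, minus strand): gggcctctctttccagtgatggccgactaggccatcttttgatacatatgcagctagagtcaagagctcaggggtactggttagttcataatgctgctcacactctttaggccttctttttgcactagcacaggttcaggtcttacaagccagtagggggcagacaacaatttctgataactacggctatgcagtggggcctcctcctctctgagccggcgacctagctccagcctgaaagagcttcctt
Cfap43 (chr19:47837362-47837611, minus strand): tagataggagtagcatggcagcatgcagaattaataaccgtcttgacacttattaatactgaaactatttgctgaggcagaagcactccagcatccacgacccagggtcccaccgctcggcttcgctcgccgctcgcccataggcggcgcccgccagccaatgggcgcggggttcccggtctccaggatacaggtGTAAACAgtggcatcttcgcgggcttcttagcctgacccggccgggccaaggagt

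The Cfap161 window holds 3 X-box arms and the Cfap43 window 1 forkhead match. Neither stands in these windows of Cfap126, for which the most upstream of its starts is shown, or Spef2. RefSeq windows were found for 39 of the 47 genes. The X-box arm, on either strand, was in 15 of their 46 windows (32.6%), which belong to 13 of the 39 genes. Over all genes it was in 3425 of 32851 windows of the same length (10.4%). Some windows of 1 gene overlap and count more than once. The forkhead letters were in 3 of the 46 (6.52%), against 3.17% of all windows. These are matches of letters and not measured binding.

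The genes were abundant in both fractions, and their scaled total was similar in the 2 groups. Together the 47 genes took 1.33%, 1.66% and 1.75% of the gene counts in tdTomato-positive libraries (mice 1 to 3), against 1.38%, 1.21% and 1.499% in the tdTomato-negative ones. After scaling, their summed levels were 12990, 14720 and 15700 CPM in the tdTomato-positive and 14220, 14650 and 15880 CPM in the tdTomato-negative libraries. The groups overlapped on both measures, though the share of gene counts was higher in the tdTomato-positive library of mice 2 and 3. The 11 tested central apparatus genes gave 6727, 7927 and 7900 CPM of the sums in the tdTomato-positive libraries. In the tdTomato-negative ones they gave 7547, 7781 and 8650 CPM. Of the 44 tested genes, 26 were among the highest 10% of all genes tested by mean CPM, and 33 were when the level was taken per kilobase of annotated exon.

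Per kilobase, the level over all libraries was highest for Cfap43, Cfap44 and Rsph4a. Cfap43 was at 148, 165 and 198 CPM per kb in the tdTomato-positive and 217, 204 and 237 CPM per kb in the tdTomato-negative libraries. Cfap44, its partner in the tether that holds an inner dynein to the doublet, was at 129, 187 and 190.1 CPM per kb in the tdTomato-positive and 158, 182 and 209 CPM per kb in the tdTomato-negative libraries. Rsph4a, a protein of the spoke head, was at 231, 144 and 183 CPM per kb in the tdTomato-positive and 225, 131 and 139 CPM per kb in the tdTomato-negative libraries. The library values of these 3 genes overlapped, so their order was within the spread, and with the longest transcript as the length Cfap69 (208 CPM per kb over all libraries) stood before Rsph4a (175). At the other end of the tested genes, Tekt3 averaged 2.97 CPM per kb in the tdTomato-positive and 2.73 CPM per kb in the tdTomato-negative libraries.

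**Figure D1:**
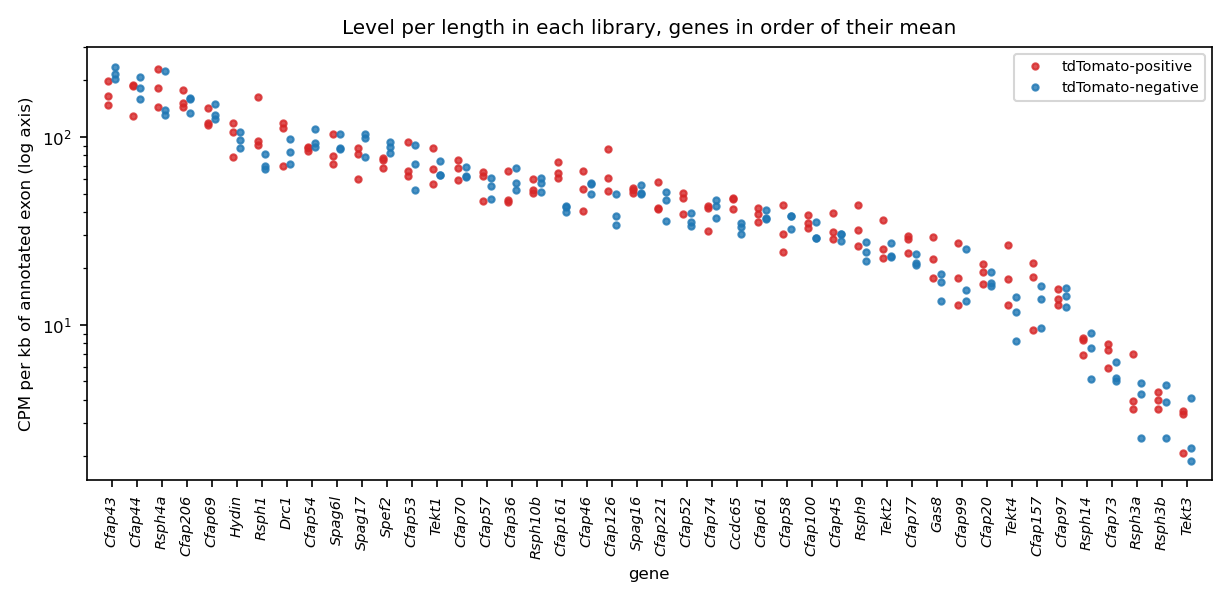
Level of the 44 tested genes in CPM per kilobase of annotated exon (log axis), one point per library, tdTomato-positive left of tdTomato-negative, with genes in order of their mean over all 6 libraries. Most genes lie within 1 broad range, the points of both fractions overlap for most of them, and Rsph14, Cfap73, Rsph3a, Rsph3b and Tekt3 sit lowest.

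The 3 genes that were not tested were close to absent. Tekt5, a tektin known from the testis, had no read in any library, which allows a level of up to 0.521 to 0.536 CPM in the tdTomato-positive and 0.474 to 0.563 CPM in the tdTomato-negative libraries (the level of 3 counts by library size alone, covering counting error only). Rsph6a, a spoke head protein known from the sperm flagellum and a paralog of Rsph4a, had 0, 0 and 1 reads in the tdTomato-positive and 0, 2 and 0 in the tdTomato-negative libraries. Spag6 had 0, 0 and 2 reads in the tdTomato-positive and 0, 5 and 3 in the tdTomato-negative libraries, while its paralog Spag6l was at 328 CPM or more in each. Reads could tell those paralogs apart over nearly their whole length, since 0.391% of the 50-base words of Spag6l transcripts also occur in Spag6.

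The main test asked whether any of the 44 tested genes differed between the fractions, with edgeR's quasi-likelihood test and adjustment over all 13175 genes tested. None did at an adjusted p under 0.05, where 0.622% of all genes tested were called, and the smallest adjusted p was 0.114, for Cfap161. At an unadjusted p under 0.05 there were 7 of the 44, against 10.7% of all genes, and limma-voom also called 0 of 44, against 0.592%. Fitted log2 fold changes, with the tdTomato-positive level on top, lay between -0.37 and 0.74, with a median of 0.09 beside 0.03 over all genes tested. There were 31 genes above 0 and 13 below, and 52.7% of all genes tested were above 0.

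Because both fractions of each mouse came from 1 animal, the test was also run with the mouse as a replicate block. It called 2 of the 44 genes, Cfap161 and Cfap126, both higher in tdTomato-positive cells, against 1.36% of all genes called higher and 1.79% called lower. Both encode proteins inside the doublet microtubules. By mouse, 10 genes were higher in 3 of 3 mice, against 19.8% of all genes tested, and 4 were lower in 3 of 3, against 18.8%. The median of the 44 differences was -0.01, 0.10 and 0.18 in mice 1, 2 and 3 on the log2 scale, and over all genes tested it was -0.01, 0.02 and 0.02. For 5 genes all tdTomato-positive libraries lay above all tdTomato-negative ones, against 8.29% of all genes, and for 2 they lay below, against 9.02%. These were 11.4% and 4.55% of the 44 genes.

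**Figure D2:**
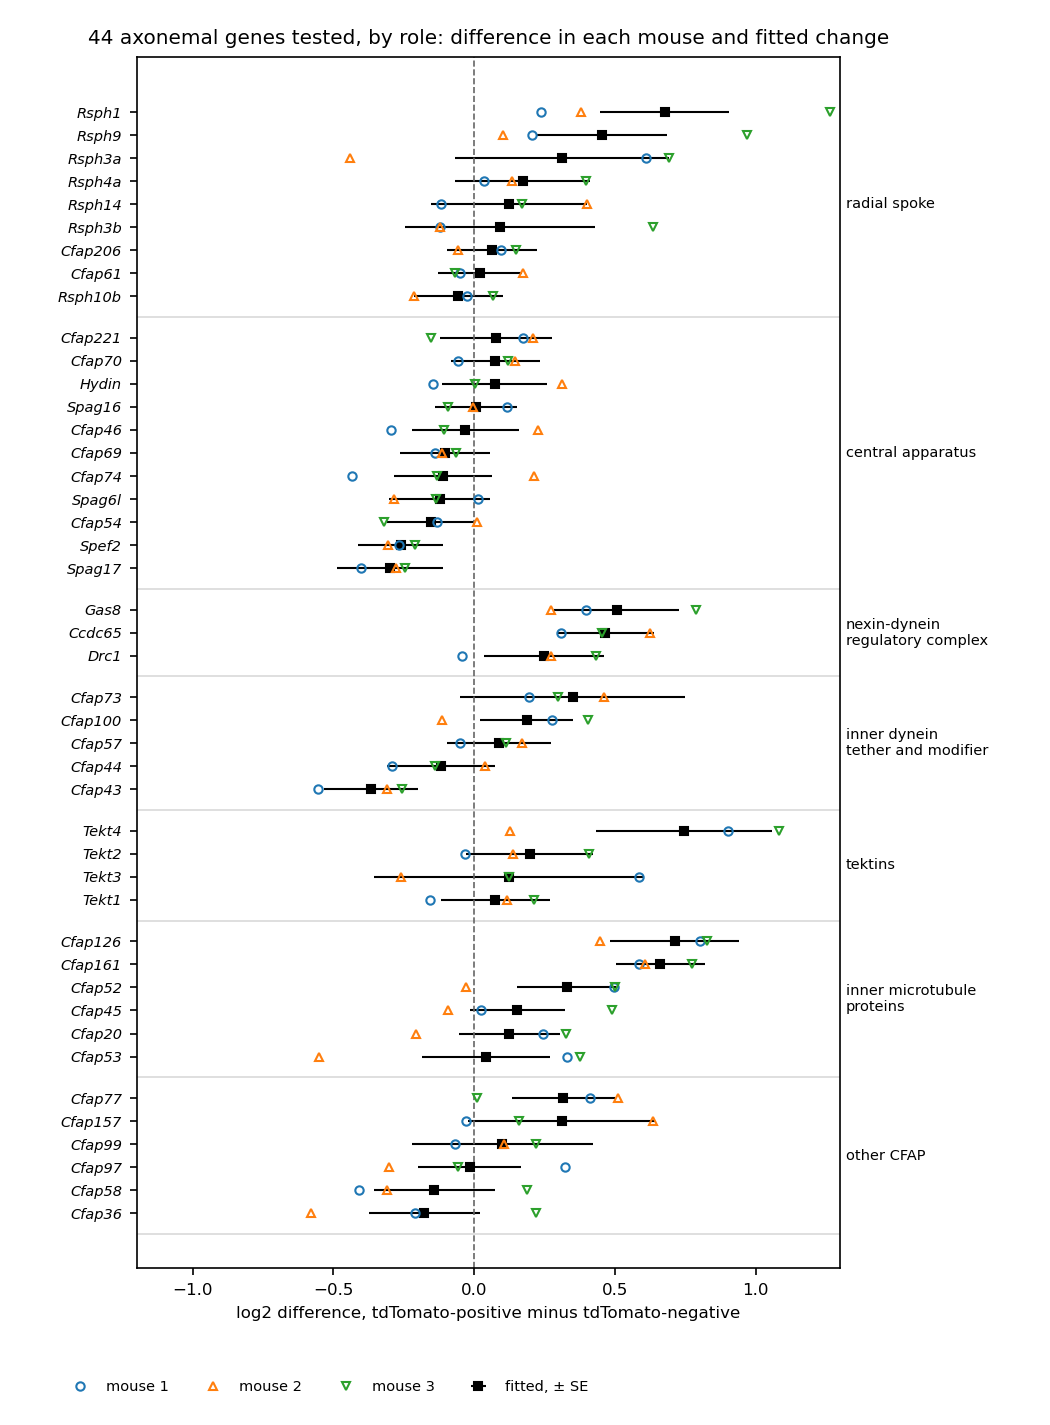
Log2 difference between the tdTomato-positive and tdTomato-negative library of each mouse (open symbols) and the fitted log2 fold change ± SE (squares, edgeR without the mouse) for the 44 tested genes, by role. Squares run from -0.37 for Cfap43 to 0.74 for Tekt4; the 3 nexin-dynein genes and all 6 inner microtubule genes have squares above 0, and 7 of the 11 central apparatus genes have them below 0.

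Of the 6 inner microtubule genes none was called by the main model and 2 were with the replicate block, and their median log2 fold change was 0.24, with 0.41, -0.06 and 0.49 in mice 1, 2 and 3. Cfap161, a protein bound inside the doublet, was at 192, 205 and 236 CPM in the tdTomato-positive and 128, 134 and 138 CPM in the tdTomato-negative libraries. The lowest tdTomato-positive library stood above the highest tdTomato-negative one, and the gene was higher in 3 of 3 mice. This was a 1.58-fold difference, with a log2 fold change of 0.66 ± 0.157 (SE; adjusted p = 0.114 by edgeR and 0.0172 with the mouse as replicate block).

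Cfap126, also named Flattop, was at 154, 91.6 and 108 CPM in the tdTomato-positive and 88.1, 67.0 and 60.4 CPM in the tdTomato-negative libraries. The groups did not overlap, though the tdTomato-positive library of mouse 2 stood just above the tdTomato-negative library of mouse 1. Its level was 1.64-fold higher in tdTomato-positive cells, 0.71 ± 0.230 on the log2 scale (SE; adjusted p = 0.289 by edgeR and 0.0301 with the mouse as replicate block). Over 21 alternatives the adjusted p ran from 0.0111 to 0.643 for Cfap161 and from 0.0101 to 0.7704 for Cfap126; DESeq2 called Cfap161 (adjusted p = 0.0357) and no other of the 44, against 0.425% of all genes called higher. Without any expression filter, 3 of the 46 genes with a read were called higher, Cfap161, Cfap126 and Rsph1, against 0.594% of all genes. With the length correction described below, the unblocked model called 0 of 44 (0.615% of all genes) and the blocked model called the same 3 higher, against 2.46% of all genes.

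Cfap53, the inner microtubule gene with the highest mean CPM, was at 172, 160.3 and 243 CPM in the tdTomato-positive and 137, 235 and 187 CPM in the tdTomato-negative libraries. Mouse 2 ran against the others, and the log2 fold change was 0.04 ± 0.228 (SE; adjusted p = 0.963 by edgeR). The other 3 of the group, Cfap20, Cfap45 and Cfap52, had log2 fold changes of 0.12 to 0.33 with mouse 2 below 0 in each.

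No radial spoke gene was called by the main model or with the replicate block. Of 10 genes 9 were tested, 8 lay above 0 (52.7% of all genes did) and 3 were higher in 3 of 3 mice, with a median of 0.12, and 0.03, 0.10 and 0.40 in mice 1, 2 and 3. Rsph1, of the spoke head, was at 131, 125 and 224 CPM in the tdTomato-positive and 111, 96.04 and 92.8 CPM in the tdTomato-negative libraries. The groups did not overlap, and the tdTomato-positive library of mouse 3 was far above the other 5. The fitted log2 value was 0.68 ± 0.229 (SE; adjusted p = 0.312 by edgeR and 0.0885 with the mouse as replicate block). Without the tdTomato-positive library of mouse 3 the fitted value was 0.36, and without both libraries of that mouse it was 0.30.

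Rsph4a, described above per kilobase, was at 842, 526 and 667 CPM in the tdTomato-positive and 822, 479 and 506 CPM in the tdTomato-negative libraries. Both libraries of mouse 1 were high, the groups overlapped and the gene was higher in 3 of 3 mice by little. The fitted log2 value without the mouse was 0.17 ± 0.239 (SE, adjusted p = 0.834 by edgeR and 0.525 with the mouse as replicate block). Rsph9, also a head protein, had means of 54.2 ± 13.8 CPM in tdTomato-positive and 39.6 ± 4.68 CPM in tdTomato-negative libraries (SD, n = 3 each; adjusted p = 0.533 by edgeR).

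Rsph3a and Rsph3b are closely related copies of a spoke stalk gene. Rsph3a was at 11.8, 10.8 and 21.1 CPM in the tdTomato-positive and 7.57, 14.8 and 12.9 CPM in the tdTomato-negative libraries. Rsph3b was at 13.7, 11.1 and 12.4 CPM in the tdTomato-positive and 14.9, 12.1 and 7.80 CPM in the tdTomato-negative libraries. Of the 50-base words in Rsph3a transcripts 54.4% also occur in Rsph3b, so reads that match both may be missing from these counts and the split between the copies is uncertain. Cfap61, Cfap206, Rsph10b and Rsph14, also spoke genes, had log2 fold changes of -0.06 to 0.12, and none was called by either model.

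Among the role lists of the 47 genes, only that of the central apparatus had a median below 0. Of 12 genes 11 were tested, 7 lay below 0 and none was called by either model, with a median of -0.10, and -0.14, 0.01 and -0.13 in mice 1, 2 and 3. Hydin, a giant protein of a central pair projection, was at 1420, 2152 and 1920 CPM in the tdTomato-positive and 1571, 1733 and 1918 CPM in the tdTomato-negative libraries. The tdTomato-positive libraries spanned the range of the tdTomato-negative ones. The log2 fold change was 0.07 ± 0.186 (SE, adjusted p = 0.914 by edgeR and 0.880 with the mouse as replicate block). On average it drew the most reads of the 47 genes in both fractions.

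Spef2, also a central pair protein, was at 677, 752 and 763 CPM in the tdTomato-positive and 815, 931 and 882 CPM in the tdTomato-negative libraries. The groups did not overlap and it was lower in 3 of 3 mice, with a difference of -0.26 ± 0.1495 on the log2 scale (SE; adjusted p = 0.567 by edgeR and 0.326 with the mouse as replicate block). Spag17, singled out after its values were seen, was at 505, 689 and 741 CPM in the tdTomato-positive and 667, 836 and 879 CPM in the tdTomato-negative libraries. It was lower within each mouse while the groups overlapped, with a log2 fold change of -0.299 (adjusted p = 0.603 by edgeR and 0.241 with the mouse as replicate block). Its exons overlap those of Wdr3 and the antisense gene Spag17os over 820 and 516 bases, and reads there cannot be told apart without a stated strand setting.

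Spag6l was at 474, 328 and 360.0 CPM in the tdTomato-positive and 470.1, 399.7 and 396 CPM in the tdTomato-negative libraries, overlapping (adjusted p = 0.841 by edgeR). Its product is a core protein of the central pair. The other 7 tested genes, Spag16, Cfap46, Cfap54, Cfap69, Cfap70, Cfap74 and Cfap221, had log2 fold changes of -0.15 to 0.08. Mycbpap, Mycbp, Kif9, Ccdc108 and Spata17, central apparatus genes outside the rule, had values of 0.40, 0.29, 0.15, 0.07 and 0.04.

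All 3 nexin-dynein regulatory genes taken by the rule lay above 0 and none was called by either model. Their median was 0.47, and 0.31, 0.27 and 0.45 in mice 1, 2 and 3. Genes of this complex outside the rule went both ways. Tcte1 and Drc7 had log2 fold changes of 0.31 and 0.42. Iqcg, Iqcd, Lrrc48, Efcab2 and Fbxl13 had -0.09, -0.06, -0.02, -0.21 and -0.54. Ccdc65 was at 82.3, 93.7 and 94.6 CPM in the tdTomato-positive and 66.3, 60.5 and 69.0 CPM in the tdTomato-negative libraries. The groups did not overlap, and the log2 fold change was 0.47 ± 0.171 (SE; adjusted p = 0.355 by edgeR and 0.176 with the mouse as replicate block). Drc1, the most abundant of the 3 by CPM and part of the base of the complex, was at 187, 318 and 301 CPM in the tdTomato-positive and 193, 263 and 223 CPM in the tdTomato-negative libraries. Mouse 1 showed no excess, both its libraries were lowest, and the groups overlapped (log2 fold change 0.25, adjusted p = 0.713 by edgeR). Gas8, named after its values were seen, averaged 92.9 ± 23.2 CPM in tdTomato-positive and 65.4 ± 10.6 CPM in tdTomato-negative libraries and was higher in 3 of 3 mice (SD, n = 3 each; adjusted p = 0.449 by edgeR).

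Of the 5 genes for inner dynein tethers and modifiers, 3 lay above 0, 2 below and none was called by either model. Cfap43 was at 1042, 1162 and 1398 CPM in the tdTomato-positive and 1530, 1441 and 1670 CPM in the tdTomato-negative libraries. The groups did not overlap and it was lower in 3 of 3 mice, with the lowest log2 fold change of the 44, -0.37 ± 0.166 (SE; adjusted p = 0.466 by edgeR and 0.138 with the mouse as replicate block). Cfap44 was at 1087, 1572 and 1597 CPM in the tdTomato-positive and 1331, 1530 and 1760 CPM in the tdTomato-negative libraries. The groups overlapped, and its log2 fold change was -0.12 ± 0.192 (SE, adjusted p = 0.859 by edgeR and 0.668 with the mouse as replicate block). The modifier subunits Cfap73 and Cfap100 had log2 fold changes of 0.35 and 0.19 and Cfap57 one of 0.09.

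Of the 5 tektins 4 were tested, all above 0 and none called by either model, with a median of 0.16. Tekt4 had the highest log2 fold change of the 44 genes, 0.74 ± 0.313 (SE; adjusted p = 0.431 by edgeR and 0.149 with the mouse as replicate block). It was at 53.0, 25.6 and 35.3 CPM in the tdTomato-positive and 28.1, 23.4 and 16.4 CPM in the tdTomato-negative libraries. Mice 1 and 3 carried the difference, mouse 2 showed little, and the groups overlapped. Tekt1, the most abundant tektin by CPM, was at 91.2, 110 and 141 CPM in the tdTomato-positive and 102, 102 and 121 CPM in the tdTomato-negative libraries, overlapping (log2 fold change 0.08, adjusted p = 0.915 by edgeR). Tekt2 and Tekt3 had log2 fold changes of 0.20 and 0.12, and 20.8% of the exon bases of Tekt2 lie opposite another gene.

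The other 6 CFAP genes had a median log2 fold change of 0.04, with 3 above 0, 3 below and none called by either model. Cfap77 was at 75.0, 78.0 and 63.04 CPM in the tdTomato-positive and 56.3, 54.6 and 62.6 CPM in the tdTomato-negative libraries. The groups did not overlap, but the values of mouse 3 were nearly equal (log2 fold change 0.32, adjusted p = 0.5695 by edgeR). Cfap36 was at 124, 126 and 181 CPM in the tdTomato-positive and 143, 189 and 156 CPM in the tdTomato-negative libraries, overlapping, with mouse 3 against the others (log2 fold change -0.18, adjusted p = 0.783 by edgeR).

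**Figure D3:**
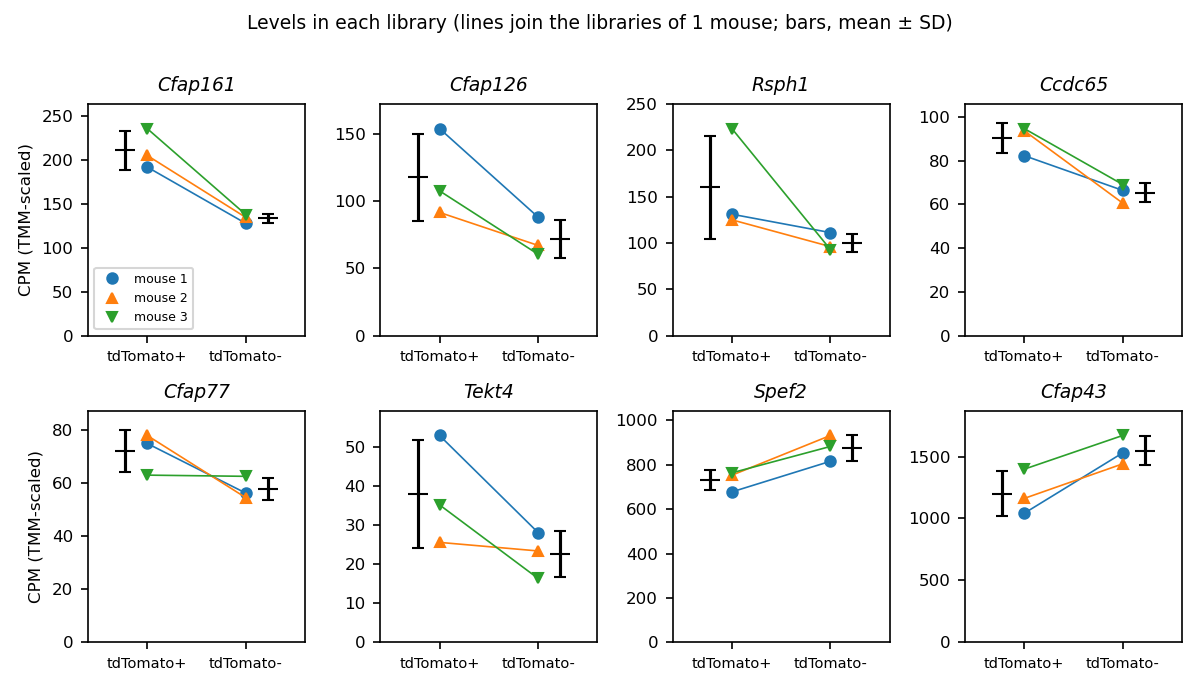
CPM in each library of the 7 tested genes whose groups did not overlap and of Tekt4, with lines joining the 2 libraries of a mouse and bars giving the mean ± SD (n = 3 each). Cfap161 is at 192 to 236 CPM in tdTomato-positive and 128 to 138 CPM in tdTomato-negative libraries, Spef2 and Cfap43 are lower in tdTomato-positive libraries, and the Tekt4 groups overlap.

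The log2 fold changes of the 44 genes were ordered in part by the length of their transcripts. Across these genes, the Spearman correlation between annotated exon length and log2 fold change was -0.67, and -0.52, -0.26 and -0.65 for the differences within mice 1, 2 and 3. Over all 12746 genes tested that had a length it was -0.08. Split into 3 classes of nearly equal size, after the values were seen, the 15 genes of up to 2644 bases were all above 0, with a median of 0.32. In that range 1756 of 3222 genes tested were above 0. Of the 15 genes over 4397 bases 5 were above 0, with a median of -0.10, and 3123 of 6249 genes tested of that length were above 0. The short class holds all 4 tested tektins, Rsph1 and Rsph9, and the long class Hydin, Spag17, Spef2, Cfap54 and 5 more of the central apparatus.

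By library, the median log2 deviation of the short class from each gene's own mean was 0.08, 0.01 and 0.31 in the tdTomato-positive and -0.19, -0.17 and -0.15 in the tdTomato-negative libraries of mice 1, 2 and 3, without overlap. In the long class it was -0.12, -0.05 and 0.04 in the tdTomato-positive and -0.06, -0.005 and 0.12 in the tdTomato-negative libraries, which overlapped. Longer genes also had more reads, with a Spearman correlation of 0.75 between length and mean CPM. Between mean CPM and log2 fold change it was -0.65, so length and abundance cannot be told apart here. Between CPM per kilobase and log2 fold change it was -0.455. For length and log2 fold change it was -0.50 over the 33 genes outside the central apparatus and -0.57 after a correction of each library for the length trend of all genes, added after the data were seen. Leaving out 1 library or 1 mouse at a time left it between -0.71 and -0.52. These coefficients are across genes of the same 6 libraries and describe them only.

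**Figure D4:**
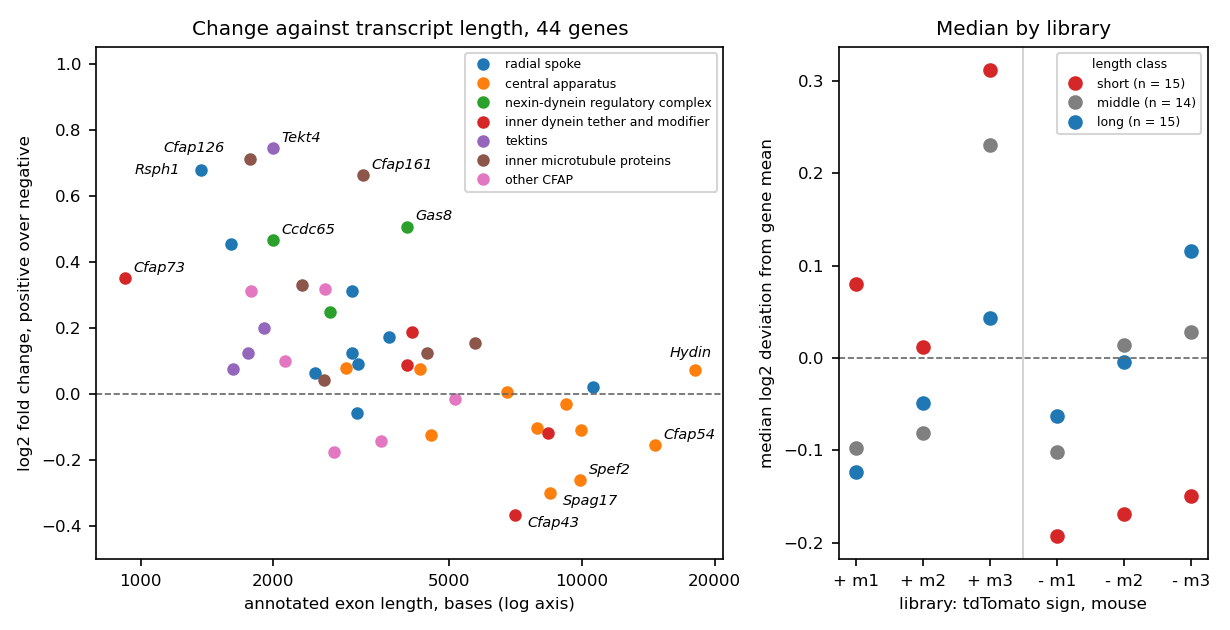
Left, fitted log2 fold change (tdTomato-positive over tdTomato-negative) against annotated exon length (log axis) for the 44 tested genes, coloured by role; right, the median log2 deviation from each gene's mean in each library by length class. Genes of up to 2644 bases all lie above 0, and their class medians are 0.01 to 0.31 in tdTomato-positive and -0.19 to -0.15 in tdTomato-negative libraries.

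Other genes of the same structures were also listed by name. Of 44 such genes in the tables, all 44 were tested and none passed an adjusted p of 0.05 in either model, with 5 at an unadjusted p under 0.05 without the block and 8 with it, the count of the 44 main genes with the block too (15.9% of all genes). Their median log2 fold change was 0.10, with 29 above 0, and -0.03, 0.02 and 0.20 in mice 1, 2 and 3. Some are CFAP genes under an older symbol, among them Ccdc108, at means of 1162 CPM in tdTomato-positive and 1104 CPM in tdTomato-negative libraries (adjusted p = 0.906 by edgeR). The pair of proteins that sets the spacing of spokes along the doublet lay on opposite sides of 0, untested as a difference. Ccdc39 averaged 724 CPM in tdTomato-positive and 966 CPM in tdTomato-negative libraries and was lower in 3 of 3 mice (log2 fold change -0.42, adjusted p = 0.4998 by edgeR), while Ccdc40 averaged 387 CPM in tdTomato-positive and 320 CPM in tdTomato-negative libraries (0.27, adjusted p = 0.646 by edgeR). Length and log2 fold change had a Spearman correlation of -0.33 over the 42 of them with a length, and -0.39, 0.08 and -0.38 within mice 1, 2 and 3.

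Foxj1, a regulator of these genes, was at 870, 402 and 270 CPM in the tdTomato-positive and 484, 138 and 116 CPM in the tdTomato-negative libraries. It was higher in 3 of 3 mice, and mouse 1 was high in both fractions (log2 fold change 1.06, adjusted p = 0.665 by edgeR and 0.000129 with the mouse as replicate block). Rfx3, an RFX factor, was at 669, 591 and 598 CPM in the tdTomato-positive and 632, 591 and 651 CPM in the tdTomato-negative libraries, which overlapped (log2 fold change -0.01, adjusted p = 0.986 by edgeR and 0.973 with the mouse as replicate block). Of the 18 multiciliated markers tested, these 2 among them, 13 were above 0 and 5 below; 0 were called without the block and 2 were called higher with it. Dnah12, an axonemal dynein chain chosen after its values were seen, averaged 1544 CPM in tdTomato-positive and 1994 CPM in tdTomato-negative libraries and was lower in 3 of 3 mice (log2 fold change -0.37, adjusted p = 0.423 by edgeR).

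The calls with the replicate block changed when 1 mouse was left out, and so did those over all genes. Over all genes the blocked fits called 633, 380 and 59 without mice 1, 2 and 3, against 415 with all mice. The blocked log2 fold change of Cfap161 stayed between 0.60 and 0.68 in those fits. Without mouse 1 the blocked model called Cfap161 and Rsph1, without mouse 2 Cfap161, Cfap126 and Tekt4, and without mouse 3 none of the 44, against 2.1%, 1.23% and 0.0967% of all genes called higher. Of the other 44 genes of these structures, it called 0 higher without mouse 1, 1 without mouse 2 (Fam183b, also on the multiciliated marker list and named here after its values were seen) and 0 without mouse 3.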

How the data were processed

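The authors deposited 1 table of unnormalized counts for each library, with a row for each gene symbol, per the file headers. Tools listed in the submitters' processing notes are STAR 2.4.2a, cutadapt 1.7.1, DESeq2, HTSeq and FastQC; mm10 and GRCm38.p4 are the builds. The HTSeq version and strand setting are not given in the sources used here. Per the labels' protocols, total RNA was amplified (Ovation kit) before TruSeq Nano libraries were made. Without molecular identifiers, reads need not be separate molecules.

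The 5 HTSeq summary rows were left out. Reads in no gene were 41.0% to 49.4%, and reads aligned to several places 8.26% to 12.0%, of the total over all rows.

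The main test was edgeR 4.0.16 (R 4.3.3) quasi-likelihood, robust, two-sided, without a mouse term, over 13175 genes kept by filterByExpr (count minimum 10), Benjamini-Hochberg adjusted over all of them and called under 0.05. CPM use TMM factors. Each SE was derived from the unblocked fit, as the absolute log2 fold change over the square root of its quasi-likelihood F statistic. The labels give 1 individual for the libraries of each number, so they pair them; deviations from the group means of the libraries of 1 mouse correlated at 0.263, 0.254 and 0.346. Differences within mice used log2(CPM + 0.5). Exon lengths came from GENCODE M21 on GRCm38. Alternatives were other normalizations and filters, DESeq2 1.42.0, limma-voom (limma 3.58.1), the replicate block, a length correction and leaving out libraries or mice. Both models were also run on simulated counts with large changes and no difference between mice. That run does not test the block on paired data or on changes as small as those given here. Genes given with all library values were those called by either model, the most abundant and the smallest p of each role, the 3 highest per kilobase, and the paralog pairs Spag6 with Spag6l and Rsph3a with Rsph3b. The genes, lists and rules were chosen with earlier results of these data known.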

Additional observations from a re-analysis of the deposited data

How the results depend on the processing

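The count of genes called lower was 0 under every alternative. The count called higher was 1 with DESeq2, 3 with no expression filter, 2 with the replicate block, 3 with the length correction and replicate block together, 0 with the other scalings, the stricter filter, limma-voom and the length correction alone, and 0 to 3 when 1 library or 1 mouse was left out. Over all genes tested, the block took the calls to 415, against 82 without it. The median log2 fold change of the 44 genes was 0.09 and became 0.35 with library size only, where that of all genes moved to 0.29; leaving out libraries or mice gave 0.01 to 0.13. With library size only, Spef2 moved to 0.0028, Cfap44 to 0.15, Cfap36 to 0.0951 and Spag6l to 0.12, all below that shifted median.

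Leaving out 1 library or 1 mouse turned the sign of 8 of the genes given with all library values, none of them called. Without mouse 1 the blocked value of Cfap53 was -0.106. Without mouse 2 the value of Hydin was -0.06152, or -0.07109 blocked, and that of Cfap36 0.03071, or 0.007459 blocked. Without mouse 3 the blocked values were -0.02233 for Tekt1 and -0.1131 for Cfap53. Without the tdTomato-positive library of mouse 1, Rsph4a stood at -0.01062 and Cfap44 at 0.04378, and without that of mouse 3 Rsph3a stood at -0.05586. Over these runs Hydin spanned -0.07 to 0.23, Cfap53 -0.16 to 0.36, Tekt1 -0.10 to 0.22, Rsph4a -0.01 to 0.46, Rsph3a -0.06 to 0.69, Rsph3b -0.13 to 0.31, Cfap44 -0.21 to 0.04 and Cfap36 -0.41 to 0.03. Cfap161 was at 0.58 to 0.73, Cfap126 at 0.47 to 0.89 and Rsph1 at 0.30 to 0.87. The cause of these moves was not tested.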
